A study of Mus musculus with 6 samples.

Results

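B cells carrying mutant MYD88 were compared directly with B cells carrying mutant IKK, to ask which transcripts MYD88 L265P raised or lowered beyond, or instead of, those of an active IKK. The comparison used 4 of the 6 arrays of the series, 2 MYD88_L265P arrays and 2 IKK_K171E arrays, chosen by their labels alone. Mature splenic B cells of the mouse were activated and then transduced with a retrovirus that carried IKK K171E, MYD88 L265P or, in the 2 EV arrays, an empty GFP vector. All groups then spent 36 hours with mitogen and 24 hours without it, and EGFP-positive cells were sorted for total RNA. The labels name anti-CD40 as withdrawn in that last culture. They call the arrays of a group biological replicates and do not say whether these came from separate mice, so p-values measure the spread between these arrays. The labels name neither the IKK subunit of the construct nor the species of the transduced cDNAs nor the age or strain of the mice. Each value is the deposited log2 signal of an array feature. A difference is the MYD88_L265P mean minus the IKK_K171E mean on that log2 scale, and the test covered features annotated with a single gene symbol. EV levels are given beside the comparison and were not tested here. The 2 EV arrays did enter the estimate of the spread, shared by all 6 arrays, from which standard errors and p-values came.

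MYD88 is the adaptor of Toll-like and interleukin-1 receptors. It assembles IRAK kinases into the Myddosome, from which signals pass through TRAF6 and TAK1 to IKK and also to MAP kinases. IKK phosphorylates the IkB inhibitors, which frees NF-kB dimers to enter the nucleus, so IKK is 1 branch below MYD88. L265P is the recurrent MYD88 mutation of activated B cell-like lymphoma and Waldenström macroglobulinaemia, and K171E is known as a substitution that leaves IKKβ active without upstream input.

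Myd88 stood at 12.25 and 12.31 on the MYD88_L265P arrays and at 9.43 and 9.14 on the IKK_K171E arrays. The EV arrays read 9.30 and 9.35, within the IKK_K171E range. The difference was 2.99 (SE 0.12, 7.97-fold, limma adjusted p = 0.000245), and the construct and the cell's own transcript cannot be told apart in it. Ikbkb, the gene of the catalytic subunit IKKβ, read 11.35 and 10.68 on the IKK_K171E arrays, 9.69 and 9.68 on the MYD88_L265P arrays and 9.98 and 10.22 on the EV arrays. It was lower in MYD88_L265P by a difference of -1.33 (SE 0.21, adjusted p = 0.0305), and leaving out IKK_K171E replicate 1, MYD88_L265P replicate 1 or MYD88_L265P replicate 2 ended that call. Ikbkg, the regulatory subunit, differed by -0.08 (adjusted p = 0.66), and Chuk was not analysed here. The mutant carried and the level at which its construct was expressed cannot be told apart in this comparison. The B cell genes Cd79a, Cd79b, Ms4a1, Ptprc and Pax5 were bright on all 6 arrays. Ptprc, for example, lay between 12.997 and 13.33. None of these 5 was called, with differences between -0.29 for Cd79b and 0.03 for Cd79a.

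Of 21542 features, 377 were called at an adjusted p below 0.05, which is 1.75% of those tested. MYD88_L265P was higher in 188 of them (0.873%) and lower in 189 (0.877%), and the difference was at least 2-fold in 65 and 53 of these. The MYD88_L265P and IKK_K171E arrays of every called feature were separate. That alone was common: both MYD88_L265P arrays lay above both IKK_K171E arrays in 20.9% of all features and below them in 36.1%. With a common median these shares were 31.2% and 22.2%, and with quantile normalization 23.4% and 26.4%. At an unadjusted limma p below 0.05 there were 4221 features. The median difference of all features was -0.05. The balance of calls moved with the scaling: arrays set to a common median gave 257 higher and 131 lower, or 66.2% higher in place of 49.9%. The count fell to 42 without IKK_K171E replicate 1, to 14 without IKK_K171E replicate 2, to 87 without MYD88_L265P replicate 1 and to 33 without MYD88_L265P replicate 2. Pearson's r across features was 0.9951 between the MYD88_L265P arrays, 0.9917 between the IKK_K171E arrays and 0.9809 to 0.9896 between these groups. Between the EV arrays it was 0.9887. Each array measured a pool of cells, so fewer cells of a type and less RNA per cell cannot be told apart.

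**Figure D1:**
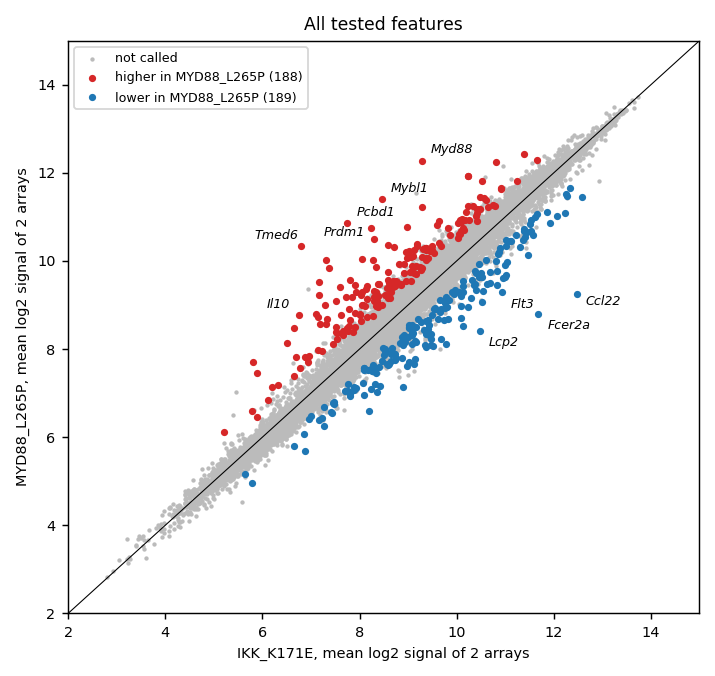
Mean log2 signal of the 2 IKK_K171E arrays (x axis) and the 2 MYD88_L265P arrays (y axis) for each of 21542 features; grey points were not called, red points were called higher in MYD88_L265P (188) and blue points lower (189), and the line marks equal means. Ccl22 and Fcer2a lie farthest below the line, and Tmed6, Pcbd1 and Myd88 far above it.

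The transcripts highest above IKK_K171E were mostly low in both other groups. Tmed6, of the TMED (p24) family of receptors for cargo leaving the endoplasmic reticulum, read 10.26 and 10.43 on the MYD88_L265P arrays, 6.78 and 6.82 on the IKK_K171E arrays and 6.997 and 7.33 on the EV arrays. Both MYD88_L265P arrays stood far above the other 4. The difference was 3.54 (SE 0.13, 11.7-fold, adjusted p = 0.000245). Pcbd1, a dehydratase that recycles the pterin cofactor of aromatic amino acid hydroxylases, read 10.67 and 11.04 against 7.81 and 7.69, with EV at 7.66 and 7.73. Its difference was 3.11 (SE 0.13, 8.62-fold, adjusted p = 0.000314). Mybl1, the transcription factor A-MYB of germinal centre B cells, read 11.10 and 11.72 against 8.51 and 8.41. Its EV arrays were apart from each other, at 8.50 and 7.30, and the difference was 2.95 (SE 0.37, adjusted p = 0.0174). The call of Mybl1 was lost when any 1 of the 4 compared arrays was left out, whereas Tmed6 and Pcbd1 were called in each of those fits.

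Among the next largest, Nqo1, a quinone reductase, read 9.49 and 10.54 in MYD88_L265P against 7.52 and 7.11 in IKK_K171E, a difference of 2.70. Tnip3, which encodes a binding partner of the ubiquitin editor A20, was higher by 2.51, Rnd3 by 2.46 and Map2, a microtubule-binding protein, by 2.37. Depdc7 followed at 2.06, Chac2, an enzyme that degrades glutathione, at 1.98, Gnat3, the G protein subunit gustducin, at 1.88 and Rbm47, an RNA-binding protein, at 1.82. They were followed by 1700019D03Rik at 1.82 and the phosphatase gene Cdc14b at 1.74. Adjusted p-values of these 10 genes ran from 0.0034 to 0.0347. All 10 calls were lost without IKK_K171E replicate 2, and 6 of them (Nqo1, Map2, Depdc7, Chac2, 1700019D03Rik and Cdc14b) also without IKK_K171E replicate 1.

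On the other side, Ccl22, a chemokine that attracts CCR4-bearing T cells, read 9.83 and 8.65 in MYD88_L265P and 12.78 and 12.18 in IKK_K171E. The EV arrays, at 10.50 and 10.09, lay between the groups. The difference was -3.24 (SE 0.37, 9.43-fold lower, adjusted p = 0.0152), and the call was lost without either IKK_K171E array. Fcer2a, which encodes CD23, an IgE receptor of mature B cells, read 9.01 and 8.57 against 11.79 and 11.57, and EV spread from 9.89 to 11.32. Its difference was -2.89 (SE 0.41, 7.41-fold lower, adjusted p = 0.0229), which no fit without 1 of the 4 arrays called. Flt3, a receptor tyrosine kinase of early haematopoietic cells and dendritic cells, read 9.41 and 9.19 against 10.96 and 10.90. EV read 10.18 and 10.19, midway. The difference of Flt3 was -1.63 (SE 0.10, adjusted p = 0.00265). Cd96, a receptor for nectin-family ligands, showed the same order, with 7.24 and 7.04 in MYD88_L265P, 7.80 and 7.93 in EV and 8.72 and 9.09 in IKK_K171E (difference -1.77, adjusted p = 0.00405). So did Fas, the death receptor, with 9.69 and 9.54, then 10.36 and 10.39, then 10.97 and 10.95 (difference -1.34, adjusted p = 0.0034). Flt3, Cd96 and Fas were called in each fit that left out 1 of the 4 compared arrays, as were Tmed6, Pcbd1, Myd88 and Il10, and no other of the 107 named genes that were called.

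Also among the 20 largest lower differences, Lcp2, the adaptor SLP-76, was lower, with a difference of -2.08, and Fyb, the adaptor ADAP, at -1.45. Fscn1, the actin bundler fascin, was lower at -1.66, Tmem176b at -1.62 and its neighbour Tmem176a at -1.37. For Lcp2, Fscn1 and both Tmem176 genes the EV arrays lay with or close to MYD88_L265P and the IKK_K171E arrays stood above: Tmem176b read 8.55 and 8.48 in MYD88_L265P, 8.31 and 8.63 in EV and 10.12 and 10.14 in IKK_K171E. Xkrx showed another order, with EV highest at 10.05 and 10.72, IKK_K171E at 9.42 and 9.54 and MYD88_L265P at 8.34 and 7.86 (difference -1.38). Adgre4, an adhesion receptor of myeloid cells, was lower at -1.60, and Ly6i at -1.44. Adjusted p-values of these 8 genes ran from 0.0034 to 0.0406. Without IKK_K171E replicate 2 all of them but Fscn1 lost the call, and without MYD88_L265P replicate 2 all but the Tmem176 genes did.

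**Figure D2:**
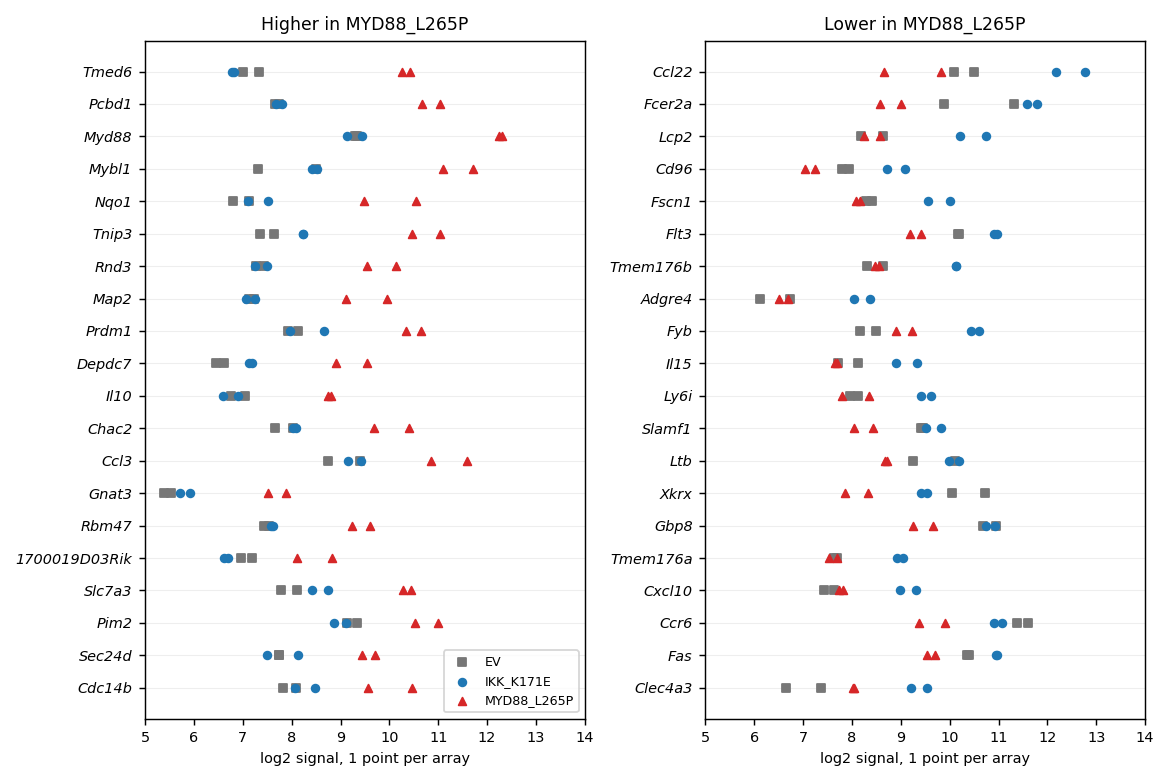
Log2 signal of each array for the 20 genes called with the largest difference in each direction, left higher and right lower in MYD88_L265P than in IKK_K171E; squares are EV, circles IKK_K171E and triangles MYD88_L265P. On the left the EV squares mostly sit with the IKK_K171E circles, as for Tmed6 at 6.997 and 7.33, and on the right they sit with either group, between them, above both or, as for Fyb at 8.17 and 8.50, below both.

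The EV arrays lay in different places for different called genes. With 1 feature a gene, 179 genes were called in each direction. Of those higher in MYD88_L265P, EV overlapped the IKK_K171E arrays alone in 81, lay between the groups in 51 and lay below both in 45. The EV mean was nearer IKK_K171E in 167 of these 179. Of those lower in MYD88_L265P, EV lay between the groups in 63, overlapped MYD88_L265P alone in 38, overlapped IKK_K171E alone in 34, lay above both in 30 and below both in 14. Here the EV mean was nearer IKK_K171E in 95 and nearer MYD88_L265P in 84. These are positions of 2 arrays and carry no test, and they were not counted over all genes. Across all features Pearson's r was 0.9764 to 0.9883 between EV and IKK_K171E arrays and 0.9670 to 0.9772 between EV and MYD88_L265P arrays. The EV arrays were thus nearer IKK_K171E over all features as well.

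In the chain from MYD88 to NF-kB, the construct genes aside, the upstream kinases and adaptors were not called. Of 14 measured members of the Myddosome, IKK complex and upstream kinase list, Myd88 was higher, Ikbkb was lower, and the other 12 had differences from -0.15 for Btk to 0.46 for Irak2. NF-kB subunits and IkB proteins divided within their list. Nfkbiz, the nuclear IkB protein IkBζ that turns on Il6 and other secondary NF-kB genes, read 10.65 and 11.15 in MYD88_L265P, 9.48 and 9.80 in IKK_K171E and 9.74 and 10.14 in EV. It was higher by 1.26 (SE 0.20, adjusted p = 0.0357). Nfkbie, the inhibitor IkBε, read 8.51 and 8.37 against 9.46 and 9.30, with EV between at 9.02 and 9.18, and was lower, with a difference of -0.94 (SE 0.11, adjusted p = 0.0152). Nfkb2, the p100 precursor of the alternative pathway, read 8.57 and 8.46 against 9.24 and 9.09 and was lower at -0.65 (adjusted p = 0.0254). The list thus had 1 of 10 measured members called higher and 2 lower, beside 0.903% of all genes in each direction. Its median was -0.35, beside -0.05 for all features. Bcl3, another nuclear IkB protein, had 0.73 without a call. No fit without 1 of the 4 compared arrays called Nfkbiz, Nfkbie or Nfkb2, and quantile normalization also lost Nfkbiz.

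Proteins that restrain NF-kB split likewise. Tnip3 read 10.46 and 11.03 in MYD88_L265P against 8.24 and 8.23 in IKK_K171E and 7.63 and 7.35 in EV. Its partner Tnfaip3, the ubiquitin editor A20, read 9.55 and 9.74 against 10.32 and 9.96, above EV at 9.07 and 9.16, and its difference of -0.49 was not called (adjusted p = 0.137). The other family members gave 0.22 for Tnip1 and -0.17 for Tnip2, neither called. Traf1, an adaptor of TNF receptors, was lower, with a difference of -0.77 (adjusted p = 0.0236). Of the 13 measured feedback regulators 1 was called higher and 1 lower, beside 0.903% of all genes in each direction, and the median was -0.24. Among 17 survival genes of the BCL2 and IAP families only Birc2, the ubiquitin ligase cIAP1, was called, lower at -0.86 (adjusted p = 0.0196). Bcl2 and Bcl2l1 had overlapping arrays, with differences of 0.07 and -0.05. Leaving out any 1 of the 4 arrays ended the calls of Traf1 and Birc2.

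Promoter letters are shown for called NF-kB regulators and effectors whose start-site windows hold a match to the kB consensus. Windows of 250 bases before to 50 after each start were taken from RefSeq on GRCm38.p6 and matched 15510 tested genes. The kB consensus, searched on both strands, was found for 1703 of these genes (11%), for 13 of 140 genes called higher (9.29%) and for 26 of 149 called lower (17.4%). The stretches below run 5′ to 3′ along each gene, with the match in capitals. Nfkb2 lies at chr19:46304678-46304728 (+), Nfkbie at chr17:45555574-45555623 (+), Ltb at chr17:35194400-35194449 (+), Cxcl10 at chr5:92348963-92349013 (-), Tnfrsf9 at chr4:150927936-150927986 (+) and Tnip3 at chr6:65590324-65590373 (+).
Nfkb2: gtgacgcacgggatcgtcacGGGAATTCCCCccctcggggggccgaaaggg
Nfkbie: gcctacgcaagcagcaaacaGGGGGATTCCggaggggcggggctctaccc
Ltb: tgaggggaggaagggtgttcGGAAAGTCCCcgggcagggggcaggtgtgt
Cxcl10: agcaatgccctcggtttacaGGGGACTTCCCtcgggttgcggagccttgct
Tnfrsf9: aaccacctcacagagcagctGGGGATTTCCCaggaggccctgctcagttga
Tnip3: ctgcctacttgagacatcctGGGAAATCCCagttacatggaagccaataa
The first 5 genes were lower in MYD88_L265P than in IKK_K171E and Tnip3 was higher, so a match to this consensus occurred on both sides. A match describes letters in the window and is no evidence of binding.

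Of 23 cytokine genes 1 was called higher and 4 lower, beside 0.903% of all genes in each direction, and the median was -0.17. Il10, an anti-inflammatory cytokine and activator of STAT3, read 8.81 and 8.74 in MYD88_L265P, 6.91 and 6.59 in IKK_K171E and 7.05 and 6.76 in EV. Both MYD88_L265P arrays stood above the other 4, and the difference was 2.03 (SE 0.14, 4.08-fold, adjusted p = 0.0034). Il6, the other classical STAT3 activator, read 9.44 and 9.28 against 7.22 and 6.67. Its EV arrays were far apart, at 7.19 and 5.39, and the difference of 2.42 (SE 0.50) was not called (adjusted p = 0.0718). Fitted on the 4 compared arrays alone, which leaves out the EV spread, Il6 was called (adjusted p = 0.00459), and over the alternatives tried its adjusted p ran from 0.00459 to 0.346. Il15, a growth factor of NK and memory T cells, read 7.70 and 7.65 in MYD88_L265P against 8.90 and 9.34 and was lower, with a difference of -1.45 (adjusted p = 0.0174). Il1b, an inflammatory cytokine, was lower at -1.13, Il12b, the p40 chain of IL-12 and IL-23, at -0.90 and Ebi3, a chain of IL-27 and IL-35, at -0.89 (adjusted p from 0.0156 to 0.0426). Il15, Il1b, Il12b and Ebi3 lost their calls without any 1 of the 4 compared arrays.

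TNF family ligands were lower where they were called. Ltb, lymphotoxin β, read 8.69 and 8.73 in MYD88_L265P, 9.99 and 10.20 in IKK_K171E and 9.24 and 10.11 in EV (difference -1.38, SE 0.25, adjusted p = 0.0464). Lta, its partner lymphotoxin α, read 8.32 and 8.12 against 9.47 and 9.47, with EV at 8.92 and 9.58 (difference -1.25, adjusted p = 0.035). For both, the MYD88_L265P arrays lay below the other 4. Tnfsf4, the OX40 ligand, was lower at -1.11 and Tnf at -0.95 (adjusted p = 0.0213 and 0.0152). The list had 4 of 13 measured members called lower and 0 higher, beside 0.903% of all genes in each direction, and a median of -0.30. Both MYD88_L265P arrays lay below both IKK_K171E arrays in 7 of the 13, beside 36.1% of all features. Without MYD88_L265P replicate 1 there was 1 call, and without any other of the 4 compared arrays 0. Quantile normalization and a common median each ended the call of Ltb (adjusted p = 0.0505 and 0.0572).

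Chemokines followed different courses. Ccl3, an inflammatory chemokine, read 11.59 and 10.85 in MYD88_L265P, 9.42 and 9.14 in IKK_K171E and 8.74 and 9.40 in EV, and was higher by 1.94 (SE 0.28, adjusted p = 0.0253). Its neighbour Ccl4 had a difference of 0.09. Cxcl10, an interferon-responsive ligand of CXCR3, read 7.82 and 7.73 against 9.32 and 8.98, with EV at 7.43 and 7.64. The EV and MYD88_L265P arrays of Cxcl10 lay together and IKK_K171E alone was high (difference -1.37, adjusted p = 0.00929). Cxcl16 was lower at -0.75 (adjusted p = 0.0297), and Ccl17, which shares a receptor with Ccl22, had -0.36 without a call. With Ccl22, 3 of 18 chemokines were lower and 1 higher, beside 0.903% of all genes called in each direction. The calls of Ccl3 and Cxcl16 were lost without any 1 of the 4 compared arrays, and that of Cxcl10 without IKK_K171E replicate 1 or MYD88_L265P replicate 2.

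Among receptors that position lymphocytes, Ccr9, the CCL25 receptor of gut homing, read 8.69 and 9.30 in MYD88_L265P, 7.35 and 7.24 in IKK_K171E and 7.42 and 7.59 in EV, and was higher by 1.70 (SE 0.19, adjusted p = 0.0136). Ccr6, the CCL20 receptor of mature B cells, read 9.91 and 9.37 against 10.92 and 11.07, with EV above both at 11.37 and 11.59, and was lower, with a difference of -1.35 (adjusted p = 0.0196). Gpr183, the oxysterol receptor EBI2 that guides B cells to the follicle edge, was lower at -0.67 and Ccr2 at -0.87 (adjusted p = 0.0174 and 0.0226). The 20 measured receptors had 1 called higher and 3 lower, beside 0.903% of all genes in each direction, and a median of -0.21. Cxcr4 and Cxcr5 were not called, with 0.62 and -0.07. With the replicate number as a block Cxcr4 was called (adjusted p = 0.0354), and the list held 2 higher and 5 lower calls. Without either IKK_K171E array no receptor was called in either direction.

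In the list of STAT3 and cytokine receptor signalling the PIM kinases, survival kinases induced by STAT factors, were the members called higher. Pim2 read 10.53 and 10.996 in MYD88_L265P, 9.11 and 8.86 in IKK_K171E and 9.33 and 9.13 in EV (difference 1.78, SE 0.17, adjusted p = 0.00783). Pim1 read 9.83 and 9.61 against 9.07 and 8.78, with EV at 8.64 and 8.68 (difference 0.80, adjusted p = 0.0324). Pim3 differed by 0.12 (adjusted p = 0.429). Jak2, a kinase of cytokine receptors, was lower at -0.69 (adjusted p = 0.0173), and Stat3 and the feedback inhibitor Socs3 were not called at -0.10 and -0.17. Of 21 members 2 were called higher and 1 lower, beside 0.903% of all genes in each direction. Pim2 lost its call without either IKK_K171E array, and Pim1 and Jak2 without any 1 of the 4.

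Receptors and ligands of T cell help were lower where called. Cd40, the receptor for T cell help, read 9.44 and 9.52 in MYD88_L265P, 10.65 and 10.60 in IKK_K171E and 9.37 and 9.76 in EV, so MYD88_L265P lay within the EV range (difference -1.15, SE 0.13, adjusted p = 0.0152). Tnfrsf9, the costimulatory receptor 4-1BB, was lower at -0.51 (adjusted p = 0.035). With Fas, 3 of 14 TNF receptor genes were called lower and 0 higher. Of the 14, 11 had both MYD88_L265P arrays below both IKK_K171E arrays, beside 36.1% of all features. Among costimulatory and activation surface genes, Slamf1, a homophilic receptor of lymphocytes, was lower at -1.44, Cd200 at -0.82, Cd80 at -0.71 and the adhesion ligand Icam1 at -0.65 (adjusted p from 0.0121 to 0.035). A second Cd80 feature gave -1.04 (adjusted p = 0.0152). Cd86, the other B7 ligand, read 10.21 and 10.09 against 10.97 and 11.25 and was not called (adjusted p = 0.0801). The 16 measured members had a median of -0.56, the lowest of the 40 lists. Of them 4 were called lower and 0 higher, beside 0.903% of all genes in each direction. Cd44, an adhesion receptor, stood against the rest at 0.67 without a call. Fas alone among these genes was called without each of the 4 arrays in turn; without MYD88_L265P replicate 1 there was 1 costimulatory call and without the others 0.

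Toll-like receptors, which lie above MYD88, were not called. Of 19 members only Tirap, the adaptor that bridges Toll-like receptors to MYD88, was called, at 9.16 and 9.23 in MYD88_L265P against 8.51 and 8.24 (difference 0.82, adjusted p = 0.0201). Tlr1 and Tlr2 had differences of -0.38 and -0.30. Tirap lost its call without any 1 of the 4 compared arrays.

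Interferon-inducible genes had a median of -0.50 over 29 members, 2 of them called lower. Both were guanylate-binding proteins, GTPases that act against intracellular microbes: Gbp5 read 9.14 and 8.78 in MYD88_L265P, 10.19 and 10.28 in IKK_K171E and 10.25 and 9.71 in EV (difference -1.28, SE 0.19, adjusted p = 0.0275), and Gbp3 was lower at -0.54. The whole family was then looked at after these values were seen. Of 8 measured members 6 were called lower, adding Gbp8 at -1.38, Gbp2b at -1.26, Gbp9 at -1.05 and Gbp11 at -0.80. All 8 had both MYD88_L265P arrays below both IKK_K171E arrays, beside 36.1% of all features. Gbp2b differed in its EV level, 8.37 and 7.89, which lay with MYD88_L265P at 8.30 and 7.88, whereas EV of Gbp5, Gbp8 and Gbp9 lay with or just above IKK_K171E. The antiviral genes Ifit1 and Mx1 had -0.71 and -0.56 without a call, and Irf7 had -0.17. Gbp5 and Gbp3 lost their calls without any 1 of the 4 compared arrays. With the replicate number as a block the interferon list held 7 lower calls, and a common median ended the call of Gbp3.

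Antigen presentation genes were mostly not called. Of 13 class II members 11 had separate arrays with MYD88_L265P below, beside 36.1% of all features, and 1 was called: H2-Oa, a chain of the DM inhibitor H2-O, read 9.45 and 9.51 against 10.22 and 10.51, with EV highest at 11.05 and 10.95 (difference -0.89, SE 0.12, adjusted p = 0.0196). The class II chains H2-Aa and H2-Ab1 had -0.23 and -0.31. The list's median was -0.42, and that of 14 class I and immunoproteasome genes was -0.20 with 0 called. At an unadjusted limma p below 0.05, 1 of the 14 was higher and 7 lower, beside 4221 of all 21542 features in either direction. The call of H2-Oa was made without IKK_K171E replicate 1 and in none of the other 3 such fits. The class II list held 3 lower calls with the replicate block, quantile normalization, array weights, the 4 compared arrays alone or without either EV array.

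**Figure D3:**
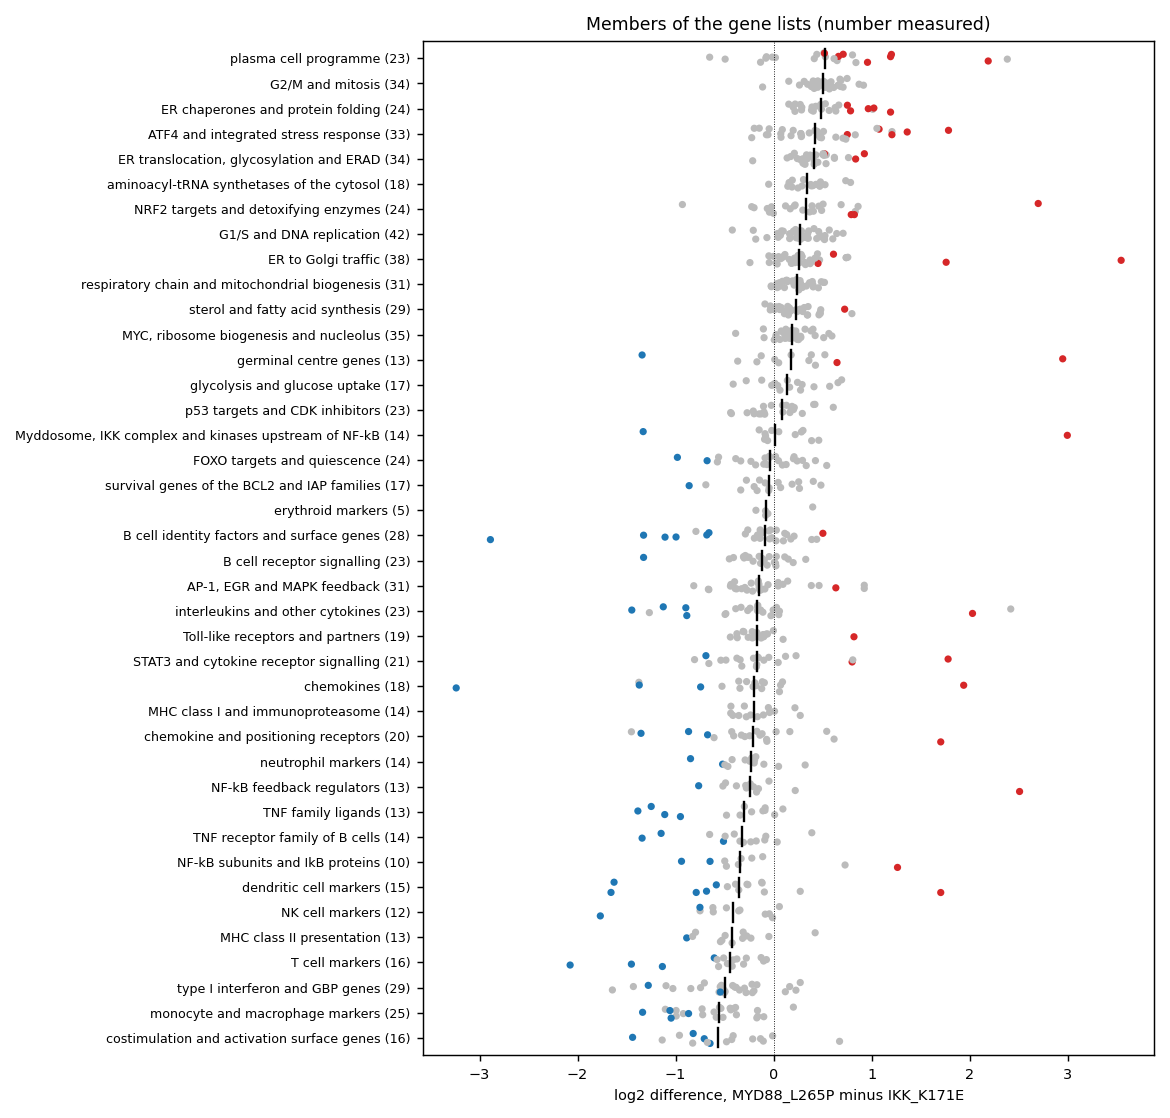
Log2 difference, MYD88_L265P minus IKK_K171E, of each measured member of the 40 gene lists (number measured in parentheses), with lists ordered by their median, drawn as a black bar; red points were called higher in MYD88_L265P, blue points lower and grey points were not called. Medians run from 0.53 for the plasma cell programme to -0.56 for costimulatory and activation surface genes, beside -0.05 for all features.

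The plasma cell programme held the largest number of higher calls of the 40 lists. Prdm1, which encodes Blimp-1, the repressor that ends the B cell programme, read 10.65 and 10.34 in MYD88_L265P, 8.65 and 7.96 in IKK_K171E and 7.92 and 8.13 in EV. The MYD88_L265P arrays stood above the other 4, and the difference was 2.19 (SE 0.22, 4.56-fold, adjusted p = 0.0106). Xbp1, the transcription factor of the secretory apparatus, read 10.49 and 10.27 against 9.41 and 8.95, with EV at 9.19 and 9.06 (difference 1.20, SE 0.16, adjusted p = 0.0198). Ell2, an elongation factor for secretory immunoglobulin mRNA, was higher by 0.96, Pou2af1, the coactivator OBF-1, by 0.71, and Creb3l2, a membrane-bound transcription factor, by 0.66 (adjusted p from 0.0196 to 0.0447). Txndc5 and Sec11c, described with the secretory genes, complete the 7 of 23 measured members called higher, beside 0 lower and a median of 0.53. Jchain, which joins IgM pentamers and IgA dimers, had 2.38 and Irf4, a regulator of plasma cell fate, 0.80, neither called. Sdc1, the surface marker CD138, had -0.01. Of the 23 members 6 had a negative difference, down to -0.65. Both MYD88_L265P arrays lay above both IKK_K171E arrays in 16 members and below them in 3, beside 20.9% and 36.1% of all features. The programme held 3 calls without IKK_K171E replicate 1 and 0 without any other of the 4 arrays, and quantile normalization ended the calls of Ell2 and Sec11c.

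Of 28 B cell identity and surface genes 6 were called lower and 1 higher, beside 0.903% of all genes in each direction. Pax5 read 11.44 and 11.48 in MYD88_L265P and 11.44 and 11.54 in IKK_K171E, and Ebf1 read 11.19 and 11.42 against 11.20 and 11.44; the arrays of these identity factors overlapped. Cr2, the complement receptor CD21, read 10.32 and 9.96 against 11.41 and 11.52, with EV at 11.20 and 11.70 (difference -1.33, SE 0.18, adjusted p = 0.0216). Fcmr, the IgM Fc receptor, was lower at -1.11, Zfp318, a factor needed for surface IgD, at -0.996, Cd72, an inhibitory receptor, at -0.68 and the tetraspanin Cd37 at -0.66 (adjusted p from 0.0347 to 0.0454). EV was highest for Fcmr, Zfp318, Cd72 and Cd37: Zfp318 read 11.84 and 12.32 in EV, 11.22 and 11.39 in IKK_K171E and 10.43 and 10.19 in MYD88_L265P. Fcer2a was the other lower call, and Fcrla, an intracellular Fc receptor-like protein, was higher by 0.50. With a common median, which ended the calls of Fcmr, Zfp318, Cd72 and Cd37, the list held 2 lower calls. The 6 lower calls were all lost without any 1 of the 4 compared arrays.

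Germinal centre genes held Mybl1, Pou2f2 and Fas as calls among 13 members. Pou2f2, the octamer factor OCT2, was higher by 0.65 (adjusted p = 0.0357), and Bcl6, the master repressor of the germinal centre, had 0.43 without a call (adjusted p = 0.172). Of 23 genes of B cell receptor signalling, Cr2 was the single call, and the kinases Syk and Btk had 0.20 and -0.15. Pou2f2 was not called without any 1 of the 4 arrays or with quantile normalization.

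**Figure D4:**
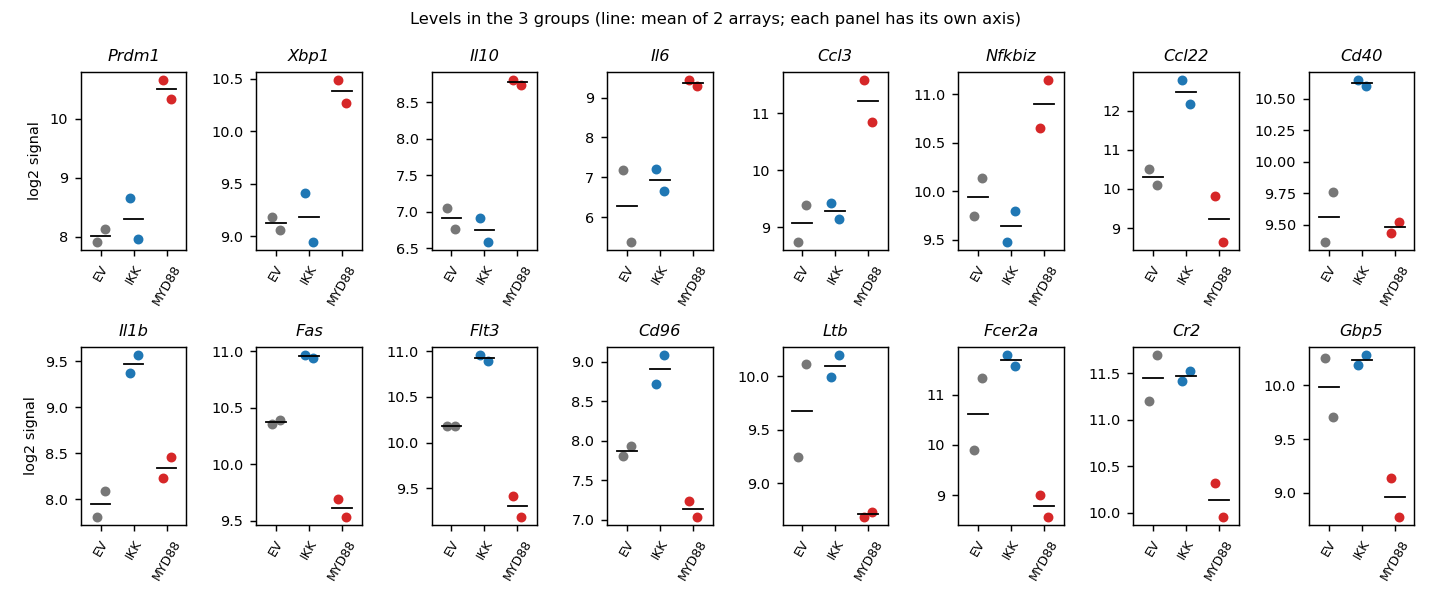
Log2 signal of each array by group (EV grey, IKK_K171E blue, MYD88_L265P red) for 16 genes, with a line at the mean of 2 arrays; each panel has its own axis, which does not start at 0. Prdm1, Xbp1, Il10, Il6, Ccl3 and Nfkbiz are highest in MYD88_L265P, and the other 10 are highest in IKK_K171E or as high there as in EV.

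Secretory pathway genes mostly had positive differences, and each of 3 lists held members called higher and 0 called lower. All 24 genes of ER chaperones and folding enzymes had a positive difference, 23 of them with separate arrays beside 20.9% of all features, and 5 were called higher. Of all 21542 features 8396 had a positive difference. With a common median 11575 had one, and 24 of the list were separate beside 31.2% of all features. Txndc5, a disulfide isomerase, read 10.26 and 10.18 in MYD88_L265P, 9.28 and 8.77 in IKK_K171E and 9.24 and 9.45 in EV (difference 1.19, SE 0.17, adjusted p = 0.0228). Creld2, an ER-resident stress protein, read 11.47 and 11.04 against 10.42 and 10.04, with EV at 9.63 and 9.89 (difference 1.02, adjusted p = 0.0484). Hyou1, an HSP70 relative, was higher by 0.97, Manf, a secreted ER stress factor, by 0.78 and Pdia4, a disulfide isomerase, by 0.75 (adjusted p from 0.0253 to 0.035). A second, dimmer Pdia4 feature had 0.59 and was not called (adjusted p = 0.137). The abundant chaperones Hspa5 (BiP) and Hsp90b1 (GRP94) had 0.39 and 0.28 without a call. The list's median was 0.48. Txndc5 lost its call without IKK_K171E replicate 2 or either MYD88_L265P array. Creld2, Hyou1, Manf and Pdia4 lost theirs without any 1 of the 4 compared arrays, and quantile normalization also ended the call of Creld2.

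Genes of translocation into the ER, glycosylation and degradation of misfolded proteins had a median of 0.41, with 3 of 34 called. In 32 of the 34 both MYD88_L265P arrays lay above both IKK_K171E arrays, beside 20.9% of all features. Sel1l, the scaffold of the HRD1 ubiquitin ligase, read 11.12 and 11.13 in MYD88_L265P against 10.40 and 10.00, with EV at 10.14 and 10.30 (difference 0.93, adjusted p = 0.0281). Edem3, a mannosidase of misfolded glycoproteins, was higher by 0.84 (adjusted p = 0.0174) and Sec11c, a catalytic subunit of signal peptidase, by 0.52 (adjusted p = 0.0332). The channel subunits Sec61a1 and Sec61b had 0.32 and 0.40 without a call. In traffic from the ER to the Golgi, 4 of 38 members were called higher and 0 lower, with a median of 0.26. Of all genes 0.903% were called in each direction. Sec24d, a cargo-selecting subunit of the COPII coat, read 9.70 and 9.44 against 8.13 and 7.49, with EV at 7.75 and 7.75 (difference 1.76, SE 0.20, adjusted p = 0.0152). Of its paralogs Sec24a had 0.76 without a call (adjusted p = 0.0768), Sec24b -0.05 and Sec24c 0.04. Of 10 TMED genes Tmed6 alone was called, and the others ranged down to -0.24 for Tmed4. Mia3, the TANGO1 receptor for bulky cargo, was higher by 0.61 and the GTPase Arf4 by 0.45 (adjusted p = 0.0386 and 0.0492). Each of these calls but Tmed6 was lost without IKK_K171E replicate 2, MYD88_L265P replicate 1 or MYD88_L265P replicate 2. Edem3, Sec11c, Mia3 and Arf4 lost theirs without IKK_K171E replicate 1 too, and Arf4 also without either EV array.

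The letters TGACGTG, the core of the unfolded protein response element bound by ATF6 and XBP1, are shown for secretory and plasma cell genes that were higher. Searched on both strands, TGACGTG was found in the windows of 2.61% of all 15510 genes, of 10 of 140 higher genes (7.14%) and of 1 of 149 lower genes (0.671%), which was Cd3e. The matches lie at chr13:38528026-38528072 (-) for Txndc5, chr9:51213609-51213655 (+) for Pou2af1 and chr1:183369625-183369671 (-) for Mia3, on GRCm38.p6 from RefSeq. The spaced ER stress element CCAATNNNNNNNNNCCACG was found in 0.135% of all genes and among the higher genes in Creld2 alone, on the reverse strand at chr15:88819500-88819558 (+).
Txndc5: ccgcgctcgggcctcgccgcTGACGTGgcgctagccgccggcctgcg
Pou2af1: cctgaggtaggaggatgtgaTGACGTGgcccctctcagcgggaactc
Mia3: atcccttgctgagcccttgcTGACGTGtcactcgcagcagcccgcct
Creld2: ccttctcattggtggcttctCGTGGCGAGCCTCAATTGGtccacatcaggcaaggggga
Sec24d also held a TGACGTG. The windows of Xbp1 and Prdm1 held neither the kB consensus nor TGACGTG nor the spaced element, which says only that these letters are not there. A TGACGTG followed by GC, as in Txndc5 and Pou2af1, also counts as the antioxidant response element TGACNNNGC, which was found in 15.2% of all genes, 22.1% of the higher and 14.8% of the lower genes. CACGTG gave 9.48%, 9.29% and 5.37%, TTTCNNTTTC gave 3.89%, 3.57% and 8.72%, and TGATGNAA gave 3.62%, 5.0% and 5.37%, in the same order.

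Genes of the ATF4 programme, which answers amino acid shortage and ER stress, had 5 of 33 members called higher and 0 lower, with a median of 0.42. Of all genes 0.903% were called in each direction. Slc7a3, a cationic amino acid transporter, read 10.28 and 10.45 in MYD88_L265P, 8.75 and 8.42 in IKK_K171E and 7.77 and 8.11 in EV (difference 1.78, SE 0.16, adjusted p = 0.0063). Vldlr, a lipoprotein receptor, was higher by 1.36, Cth, which makes cysteine from cystathionine, by 1.21, Atf3, a stress transcription factor, by 1.08 and Chac1, which degrades glutathione, by 0.75 (adjusted p from 0.015 to 0.0479). Asns, asparagine synthetase, had 1.21 and the serine pathway enzymes Shmt2 and Psat1 had 1.05 and 0.83, none called. Atf4 itself had 0.49 (adjusted p = 0.0998) and Ddit3, the factor CHOP, -0.05 with overlapping arrays. The 18 cytosolic aminoacyl-tRNA synthetases had a median of 0.34 with 0 called. At an unadjusted limma p below 0.05, 9 of the 18 were higher and 0 lower, beside 4221 of all 21542 features in either direction. All 5 ATF4 calls were lost without IKK_K171E replicate 2 or MYD88_L265P replicate 2. Vldlr and Cth also lost theirs without IKK_K171E replicate 1, and Atf3 and Chac1 without any 1 of the 4 compared arrays.

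Detoxifying genes of the NRF2 programme were called higher in 3 of 24 members and lower in 0, beside 0.903% of all genes in each direction. Beside Nqo1, Gstm5, a glutathione transferase, read 7.96 and 7.98 in MYD88_L265P, 7.28 and 7.01 in IKK_K171E and 6.64 and 6.74 in EV (difference 0.82, adjusted p = 0.0201). Gclc, the rate-limiting enzyme of glutathione synthesis, read 10.82 and 10.95 against 10.24 and 9.95, with EV at 9.53 and 9.74 (difference 0.79, adjusted p = 0.0383). For Gstm5 and Gclc EV was lowest and IKK_K171E between. Hmox1, haem oxygenase 1, had 0.83 and missed the threshold (adjusted p = 0.0508), and Ephx1, an epoxide hydrolase, had -0.93 without a call. In sterol and fatty acid synthesis 1 of 29 members was called, Hsd17b7, a cholesterol synthesis enzyme, at 0.72 (adjusted p = 0.0386). Glycolysis (17 members, median 0.14) and the respiratory chain (31 members, median 0.23) had 0 called. At an unadjusted limma p below 0.05, 3 and 8 of their members were higher and 1 and 0 lower. Among all 21542 features 4221 had such a p in either direction. With the replicate number as a block 2 glycolysis genes were called higher. Gstm5, Gclc and Hsd17b7 lost their calls without any 1 of the 4 compared arrays, and Hsd17b7 also with quantile normalization.

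Proliferation and growth genes were not called, although most had small positive differences. Of 34 genes of G2/M and mitosis 33 had both MYD88_L265P arrays above both IKK_K171E arrays, beside 20.9% of all features. The list had a median of 0.50 and 0 called, and 3 members had an unadjusted limma p below 0.05. The mean level of this list was 10.77 and 10.86 in MYD88_L265P, 10.45 and 10.16 in IKK_K171E and 10.53 and 9.36 in EV, so the EV arrays differed from each other by more than the groups compared here did. With the 4 compared arrays fitted alone, 4 of the 34 were called higher. The 42 genes of G1/S and DNA replication had a median of 0.27 and the 35 genes of MYC and ribosome biogenesis 0.18, with 0 called in either. At an unadjusted limma p below 0.05, 12 and 3 were higher and 1 and 1 lower. Among all 21542 features 4221 had such a p in either direction. With the replicate number as a block 2 G1/S genes were called higher. Myc read 11.56 and 11.59 against 11.50 and 11.16, a difference of 0.24 (adjusted p = 0.581). Among 24 FOXO and quiescence genes, Pdcd4, an inhibitor of translation, was lower at -0.98 and Zfp36l1, an RNA decay factor, at -0.68 (adjusted p = 0.0253 and 0.0392), and Foxo1 and Foxo3 were not called. The 23 p53 targets had 0 called and 1 with an unadjusted p below 0.05. Of 31 AP-1, EGR and MAPK feedback genes only Jun was called, higher by 0.63 (adjusted p = 0.0411), and Fos had -0.44. Pdcd4, Zfp36l1 and Jun lost their calls without any 1 of the 4 arrays.

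Markers of other cell types moved with the comparison on the lower side. Of 25 monocyte and macrophage markers 22 had both MYD88_L265P arrays below both IKK_K171E arrays, beside 36.1% of all features, and 4 were called lower. Clec4a3, a myeloid lectin, read 8.03 and 8.05 in MYD88_L265P, 9.22 and 9.54 in IKK_K171E and 6.65 and 7.37 in EV (difference -1.34, adjusted p = 0.0388). Lilr4b, Tyrobp and Ccr2 were the others, at -1.06, -1.05 and -0.87. The log2 of the summed level of the list was 13.98 and 13.80 in MYD88_L265P, 14.81 and 14.60 in IKK_K171E and 13.72 and 14.01 in EV. Of the defining markers, Csf1r read 8.30 and 8.15 against 9.30 and 8.99 (adjusted p = 0.0664), Lyz2 11.94 and 11.70 against 12.96 and 12.89 (adjusted p = 0.0858), Cd68 10.51 and 10.36 against 11.68 and 11.18 (adjusted p = 0.0519) and C1qa 7.83 and 7.81 against 8.04 and 7.95 (adjusted p = 0.33). EV read 7.66 and 8.20 for Csf1r, 11.09 and 11.95 for Lyz2, 10.48 and 10.84 for Cd68 and 7.91 and 8.02 for C1qa. Adgre1 had another order, with EV at 11.30 and 11.11, IKK_K171E at 10.10 and 9.97 and MYD88_L265P at 9.69 and 9.16 (limma adjusted p = 0.14). Itgam, C1qb and C1qc had differences of -0.38, -0.16 and -0.40, none called, and the arrays of C1qb overlapped. No marker reads 0 on this scale. The part of such cells in the lower values of Ccl22, Il1b, Cxcl10, Fscn1 and the adaptors was not tested.

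Dendritic cell markers had 5 of 15 called lower (Fscn1, Flt3, Clec10a, Itgax and Zbtb46) and 1 higher (Ccr9), and their log2 summed level was 12.36 and 12.38 in MYD88_L265P against 12.92 and 12.82 in IKK_K171E and 12.75 and 12.72 in EV. Itgax, the integrin CD11c, read 7.59 and 7.56 against 8.25 and 8.27, with EV at 7.56 and 7.60, and Zbtb46, a factor of conventional dendritic cells, 7.99 and 7.92 against 8.58 and 8.50. T cell markers had 4 of 16 called lower (Lcp2, Fyb, Cd3g and Cd3e), with a log2 summed level of 12.72 and 12.59 in MYD88_L265P, 13.28 and 13.25 in IKK_K171E and 13 and 13.1 in EV. Cd3g, a chain of the T cell receptor complex, read 7.35 and 6.84 against 8.40 and 8.07. NK cell markers had 2 of 12 called lower, Cd96 and Nkg7, and their log2 summed level was 10.96 and 10.73 against 11.30 and 11.45, with 11.22 and 11.02 in EV. Neutrophil markers had 2 of 14 called lower, Cxcr2 and S100a8, with 10.97 and 10.99 against 11.22 and 11.20, and 11.14 and 11.10 in EV. Of the 5 erythroid markers 0 were called and 0 had an unadjusted p below 0.05, with 11.90 and 11.90 against 11.85 and 11.49, and 11.08 and 10.93 in EV. In all 5 lists with calls both MYD88_L265P sums lay below both IKK_K171E sums. Of all genes, with 1 feature a gene, 0.903% were called in each direction. Both MYD88_L265P arrays lay below both IKK_K171E arrays in 36.1% of all features. They did so in 11 of 15 dendritic cell, 14 of 16 T cell, 8 of 12 NK cell and 12 of 14 neutrophil markers. The part of these cell types in any result was not tested. The T cell list held 3 calls and the macrophage list 1 without MYD88_L265P replicate 1, and both held 0 without any other of the 4 arrays. The macrophage list held 9 lower calls with the 4 compared arrays alone or without either EV array, 6 with array weights and 2 over all features. The neutrophil calls were lost without any 1 of the 4 and with a common median, and the dendritic cell and NK lists held 1 or 2 lower calls in each of the 4 fits.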

How the data were processed

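Total RNA of 6 samples was hybridised to Affymetrix mouse ST 1.0 arrays, 1 array a sample, grouped by their labels. The values were deposited on a log2 scale, 1 per array feature, by the authors; oligo and limma are named per the submitters' processing notes, without versions or roles. The background correction, normalization, summarization and genome build are not given in the sources used here. Values of its 24743 features range from 2.55 to 14.5, with medians of 8.03 to 8.13 by array, and no detection p-values were used. The number of arrays limits the precision.

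The platform annotation gave exactly 1 symbol to 21542 features (19818 genes), several to 1522 and none to 1679; 21472 had an Entrez identifier in RefSeq and 0 symbols changed. Group means of all 6 arrays were fitted with limma 3.58.1 in R 4.3.3 (3 residual and 4.17 prior degrees of freedom), and MYD88_L265P minus IKK_K171E was tested two-sided with Benjamini-Hochberg adjustment over those features. Standard errors are from this fit, with 2 arrays a group. On simulated data the fit recovered 35.8% of features changed 1.5-fold, 82.1% at 2-fold and 98.5% at 4-fold, and called 7 unchanged ones. The simulated noise was independent and normal, drawn from the fitted variance model with equal spread in all groups. Unequal spread and differences in scaling between arrays were thus not simulated.

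For 40 gene lists (895 genes, 826 measured) the brightest feature stood for a gene. Genes were named as the 20 largest separated calls in each direction, the first 2 members of each list, up to 6 called members of each list with the largest differences, and the construct genes. Genes named outside this rule, such as the Gbp, Sec24 and Tnip relatives, Cd68, Jchain and other uncalled list members, were chosen after their values were seen. Members, lists and motifs were chosen with earlier results of these data known. Alternatives were the replicate block, quantile and median scaling, other variance models, filters and thresholds, the 4 arrays alone, and leaving out each array.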

Additional observations from a re-analysis of the deposited data

How the results depend on the processing

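The count of 377 called features moved by more than 1.5 times when the 4 compared arrays were fitted alone (592), at an adjusted p below 0.01 (39) and when 1 array was left out (14 to 592). The 592 without either EV array equal the fit of 4 arrays alone, because a lone EV array adds nothing to the spread, and a lone IKK_K171E or MYD88_L265P array is assumed to vary like the other groups. Counts from 260 to 498 came from the other settings: 498 with the replicate block (257 higher and 241 lower, 363 of them among the 377), 471 with array weights, 444 with an intensity trend, 404 with robust variance, 389 without the dimmest 25% of features, 388 with a common median, 387 with quantile normalization, 387 with 1 feature a gene and 260 over all features, with or without a symbol. The replicate numbers were not taken as pairs, since the labels tie them to no shared animal, batch or day and the 2 groups compared give 2 pairs. The numbers used here are those of the sample descriptions, and the sample titles number the arrays otherwise. By title the IKK_K171E and MYD88_L265P arrays match in the same way, but EV replicate 1 shares its number with no other array. No block by title was fitted. The deviations of arrays with the same description number correlated across features at 0.144 for IKK_K171E and MYD88_L265P. The value was 0.211 for EV and IKK_K171E and 0.105 for EV and MYD88_L265P. The block ended the calls of Arf4 and S100a8 and called Il6 and Cxcr4. It also moved list counts by over 1.5 times: lower calls of interferon genes from 2 to 7, class II from 1 to 3, STAT3 and cytokine receptor genes from 1 to 3, positioning receptors from 3 to 5 and AP-1 genes from 0 to 1, and higher calls of G1/S and glycolysis genes from 0 to 2 each, of cytokines, positioning receptors and AP-1 genes from 1 to 2 each and of B cell identity genes from 1 to 0.

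Of 107 named genes that were called none turned sign, and the call was lost in 9 with quantile normalization, 12 with a common median, 5 with robust variance, 29 over all features and 71 to 97 with 1 of the 4 compared arrays left out. Signs turned in genes that were not called: with quantile normalization Bcl2 (-0.03) and Mycn (0.01); with a common median Bcl2l1 (0.02), Cxcr5 (0.00), Pax5 (0.04), Ebf1 (0.05), Ddit3 (0.03) and Foxo3 (0.00). With 1 array left out, signs turned for Bcl2 (range -0.04 to 0.18), Bcl2l1 (-0.21 to 0.11), Cxcr5 (-0.28 to 0.14), Irf7 (-0.36 to 0.02), Pax5 (-0.08 to 0.02), Ebf1 (-0.14 to 0.10), Ddit3 (-0.19 to 0.10), Hmgcs1 (-0.03 to 0.35), Klrb1c (-0.28 to 0.10), Foxo3 (-0.14 to 0.01) and Ikbkg (-0.18 to 0.02). The cause was not tested. With 2 arrays a side, differences of 1.5-fold were mostly missed in the simulated data, and no real value was separated from background.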

Other observations

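The genes below were picked after their values were seen and carry no support from that choice. Kynu, kynureninase of the pathway that breaks down tryptophan, read 11.18 and 10.98 against 12.18 and 12.29, with EV at 11.38 and 11.81 (difference -1.16, limma adjusted p = 0.0196). Of other enzymes of that pathway, Haao was lower at -0.70 and Kmo at -0.63, and for both EV was as high as IKK_K171E or higher. Clock-related repressors went both ways: Cry1 was higher by 1.13 and Nfil3 by 0.80, and Bhlhe40 was lower at -1.14 (adjusted p from 0.0152 to 0.0226). The ER stress sensors Ern1 and Atf6 were each higher by 0.58, and Tram2, a translocon-associated protein, by 1.22. The Golgi glycosyltransferases Fut8 and C1galt1 were higher by 0.85 and 1.03, along with Golm1 by 0.57 and the tethering subunit Cog6 by 0.52.

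Tent5c, a poly(A) polymerase of immunoglobulin mRNA, read 9.80 and 9.94 in MYD88_L265P, 8.41 and 8.26 in IKK_K171E and 8.31 and 8.40 in EV (difference 1.54, adjusted p = 0.00297). Eaf2, a partner of Ell proteins, was higher by 1.59 (adjusted p = 0.0152). The mitochondrial carbonic anhydrase Car5b was higher by 1.38 and the cytosolic Car13 by 1.16. Aldh1l2 and Gpt2, mitochondrial enzymes of folate and alanine metabolism, were higher by 0.86 and 0.84.

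Irf1, an interferon-induced factor, was lower at -0.90, Sting1, the cyclic dinucleotide sensor, at -0.89 and Nlrp3, an inflammasome sensor, at -0.69 (adjusted p from 0.0196 to 0.0449). Nlrp3 lay at 6.75 and 6.83 in MYD88_L265P, 6.94 and 6.88 in EV and 7.54 and 7.43 in IKK_K171E, below each array's median. Of 8 measured Cd300 receptors 3 were lower, of 11 Clec4 lectins 3 and of 5 Slamf receptors 3, with 0 higher in these families. Of all genes, with 1 feature a gene, 0.903% were called in each direction. Both MYD88_L265P arrays lay below both IKK_K171E arrays in 8, 9 and 4 of these members, beside 36.1% of all features. Ackr3, a scavenging chemokine receptor, read 7.18 and 6.88 against 8.33 and 8.38, with EV at 7.28 and 7.12 (difference -1.32, adjusted p = 0.00703).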
